A study of Homo sapiens with 9 samples.

Results

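The 9 genes described here are pancreatic lineage transcription factors: NKX6-2, NKX6-1, PDX1, SOX9, GATA6, GATA4, HNF4A, FOXA2 and ONECUT2. They were taken by name from a table of 27800 gene symbols, in which all 9 had a row. NKX6-2 was chosen by its own measured values, for its distance below the day 0 level, so its values are given as a description, without a test. The cells were PANC-1, a single established line from a human pancreatic ductal carcinoma, carried as WT in the table's headers, and RNA was sequenced from 3 libraries at each of day 0, day 2 and day 14 of combined nutrient and oxygen shortage. The medium held 2.5 mM glucose, fetal calf serum at 0.5% and amino acids at 20% of the usual concentration. The same growth text was given for all 9 samples, so how the day 0 cells were kept was not stated, and no culture without deprivation was labelled for day 2 or day 14. Deprivation, time in culture and a batch by day thus cannot be told apart, and both comparisons against day 0 use the same 3 day 0 libraries. Nothing in the labels said whether replicates were separate cultures, so p-values measure the spread between these libraries, which may be technical.

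These factors build the pancreas and hold its cell types apart. PDX1 and the GATA factors act in the early pancreatic bud, SOX9 maintains progenitors and later marks ducts, and FOXA2, HNF4A and the ONECUT factors are liver and pancreas regulators that control PDX1 and one another. NKX6-1 is needed for beta cells, and NKX6-2 is its close relative, known in the mouse pancreas and in myelinating cells of the brain. In pancreatic carcinoma, GATA6 is a marker of the classical subtype.

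The values are TPM, a within-library measure of transcript abundance scaled for transcript length, so levels of different genes can be compared, but the number of reads behind each value is unknown. One library stood apart. Day 0 replicate 2 had 11363 symbols that reached 1 TPM, fewer than any of the remaining 8 libraries (13016 to 13868), and its median ratio to the mean of day 0 replicates 1 and 3 over all tested genes was 0.565. Tests of the factors against day 0 are therefore also given without it. Changes are differences in mean log2(TPM + 1) with their standard error (SE), from limma fitted to all 14144 symbols that reached 1 TPM in at least 3 libraries. A gene was called at an adjusted p under 0.05 (Benjamini-Hochberg over all tested genes). The whole table shifted upward on this scale. The median change of all genes was 0.23 at day 2 and 0.44 at day 14 against day 0, and median-ratio scaling brought these to 0.13 and 0.11.

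The promoters of GATA6 and ONECUT2 are shown because, of the 4 of 9 symbols that matched a RefSeq promoter (GRCh38.p14), these were at their highest in all 3 day 14 libraries. The windows run from 250 bases before to 50 bases after the annotated start, 5′ to 3′ on the gene's strand, chr18:22169339-22169638 (+) for GATA6 and chr18:57435124-57435423 (+) for ONECUT2. This build is not the hg19 named for the expression table, and the match was made by symbol. Capitals mark matches to any of 4 motifs searched on both strands.
GATA6: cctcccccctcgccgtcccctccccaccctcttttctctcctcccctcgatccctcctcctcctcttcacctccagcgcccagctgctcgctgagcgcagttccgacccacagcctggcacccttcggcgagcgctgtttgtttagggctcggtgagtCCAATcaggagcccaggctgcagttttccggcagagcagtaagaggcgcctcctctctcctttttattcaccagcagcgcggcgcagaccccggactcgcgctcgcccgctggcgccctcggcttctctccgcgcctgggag
ONECUT2: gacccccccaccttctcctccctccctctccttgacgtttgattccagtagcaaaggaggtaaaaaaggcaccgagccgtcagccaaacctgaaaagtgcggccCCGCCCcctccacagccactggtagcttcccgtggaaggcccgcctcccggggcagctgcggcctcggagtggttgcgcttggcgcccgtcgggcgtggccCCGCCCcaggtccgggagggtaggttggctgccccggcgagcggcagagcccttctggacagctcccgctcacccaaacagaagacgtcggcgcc
The motifs were ACGTG, the core of a hypoxia response element, then AGATAA, a site for GATA factors, then CCAAT, the CCAAT box, and last GGGCGG, the GC box. GATA6 held 1 CCAAT box, at positions -92 to -88 from the start, and ONECUT2 held 2 GC boxes, at -146 to -141 and -45 to -40, while the hypoxia core and the GATA site were in neither window. Of all 35116 RefSeq promoter windows of this length, the hypoxia core was found in 21.4%, the GATA site in 10.3%, the CCAAT box in 34.6% and the GC box in 45.0%. Each window held 1 kind of motif, with no overlap, and the GC boxes of ONECUT2 lie on the other strand, so that they read CCGCCC as printed.

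Of the 9 factors 5 reached the test, namely NKX6-2, SOX9, GATA6, GATA4 and FOXA2. PDX1, ONECUT2, NKX6-1 and HNF4A did not. At day 0, SOX9 (45.5 ± 21.1 TPM, mean ± SD, n = 3 here and below) and NKX6-2 (44.2 ± 5.91 TPM) had the highest levels and did not differ beyond their spread. FOXA2 followed at 27.9 ± 13.2 TPM, below both SOX9 and NKX6-2 in every library. Over the day 0 libraries its range overlapped with that of SOX9 but not with that of NKX6-2. GATA4, at 8.65 ± 5.36 TPM, lay below FOXA2 without overlap, and GATA6, at 3.23 ± 1.45 TPM, overlapped with GATA4. At day 2 the order was SOX9 (56.5 ± 8.32 TPM), FOXA2 (30.7 ± 5.63 TPM), GATA6 (12.3 ± 0.331 TPM), GATA4 (10.1 ± 2.18 TPM) and NKX6-2 (1.63 ± 0.813 TPM), and of these neighbours GATA6 and GATA4 alone overlapped. By day 14 the order was SOX9 (93.3 ± 16.2 TPM), FOXA2 (20.5 ± 2.05 TPM), GATA6 (18.0 ± 2.01 TPM), GATA4 (11.0 ± 1.21 TPM) and NKX6-2 (1.26 ± 0.458 TPM). FOXA2 and GATA6 overlapped at day 14, while SOX9 stood above both and NKX6-2 below all 4 of the other tested factors.

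**Figure D1:**
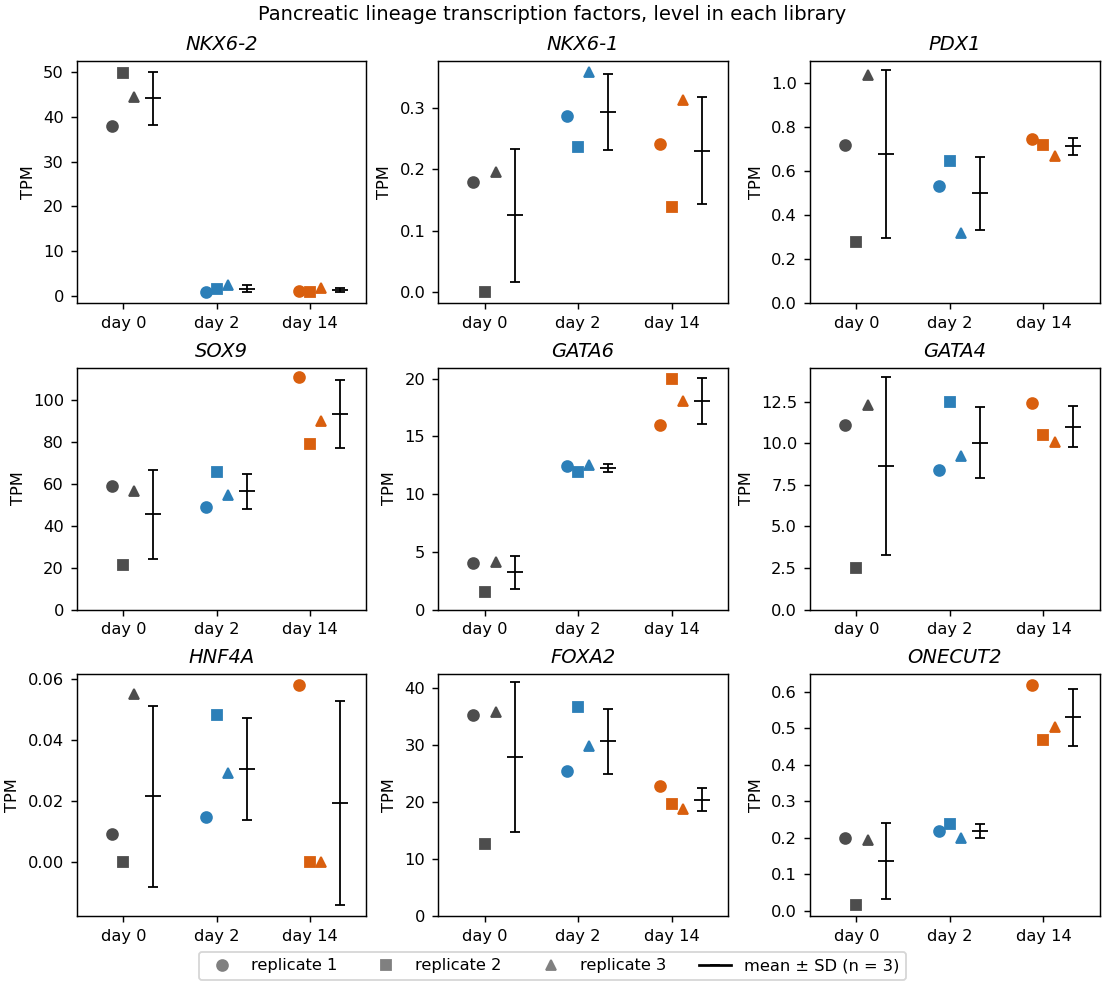
Level of each lineage factor in TPM (vertical axis, scaled separately per gene) at day 0, day 2 and day 14 (horizontal axis). Points are single libraries with 1 symbol per replicate number, and black bars are the mean ± SD of 3 libraries. NKX6-2 is at 38.1 TPM or more at day 0 and at 2.5 TPM or less later, GATA6 is higher at both later days, and day 0 replicate 2 is the lowest day 0 library for every factor except NKX6-2.

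NKX6-2, a homeodomain repressor, was the member with the largest difference. Its libraries read 38.1, 49.9 and 44.5 TPM at day 0 (replicates 1, 2 and 3, in that order throughout), 0.887, 1.51 and 2.5 TPM at day 2, and 1.18, 0.856 and 1.76 TPM at day 14. All 6 later libraries lay below all 3 day 0 libraries, while day 2 and day 14 overlapped. In bulk RNA, fewer cells that express a gene and less RNA per cell cannot be told apart. The change was -4.14 ± 0.27 (SE) at day 2 and -4.33 ± 0.27 at day 14 against day 0, and -0.19 ± 0.27 between day 14 and day 2. In mean TPM the day 0 level was 27.1 times that of day 2 and 35.0 times that of day 14. The log2 changes depend on the constant added before taking logs, since with 0.1 in place of 1 the changes were -4.78 and -5.07. Among genes with at least 5 TPM at day 0 and an ordinary gene symbol, the next lower changes belonged to the fatty acid binding protein FABP5, at -3.89 at day 2 and -3.85 at day 14. Only small RNA symbols changed further downward than NKX6-2, 5 at day 2 and 3 at day 14, all named as small nucleolar RNAs or microRNAs. Day 0 replicate 2, which was low for the other factors, had 1.21 times the mean NKX6-2 level of replicates 1 and 3, and without it the changes were -4.05 and -4.24.

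The coding genes beside NKX6-2 were not called. INPP5A, an inositol phosphatase gene that RefSeq places next to NKX6-2 on chromosome 10 and overlapping it, was at 27.0 ± 4.09 TPM at day 2 and 25.8 ± 3.85 TPM at day 14, against 28.7 ± 5.07 TPM at day 0 (adjusted p = 0.787 and 0.622 by limma). It was called lower at day 14 against day 0 under median-ratio scaling (adjusted p = 0.0236) and quantile normalization (0.0248). Whether counting used the strand was not given in the sources used here, so reads in the overlap cannot be told apart. PWWP2B, the next coding gene on that side, was at 27.7 ± 9.13 TPM at day 2 and 29.6 ± 7.28 TPM at day 14, against 25.5 ± 4.49 TPM at day 0 (adjusted p = 0.843 and 0.602). LINC01166, a long RNA gene on the other side, was higher at both days, at 1.04 ± 0.649 TPM at day 2 and 1.71 ± 0.204 TPM at day 14, against 0.15 ± 0.0707 TPM at day 0 (0.79, adjusted p = 0.0243, and 1.24, adjusted p = 0.0037). It passed the filter through day 2 and day 14 libraries alone. Quantile normalization (adjusted p = 0.197) and replicate number as a block (0.0546) each ended its day 2 call. CFAP46, also on that side, did not reach the test, and none of its libraries was above 0.284 TPM. The neighbouring genes were looked at after the values had been seen.

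The other NKX6 genes stayed low. NKX6-1, the beta cell factor, was at 0.18, 0 and 0.195 TPM at day 0, at 0.286, 0.236 and 0.358 TPM at day 2, and at 0.241, 0.138 and 0.312 TPM at day 14. Its day 2 libraries were all above its day 0 libraries, at levels too low for the test, and without the filter on low values the adjusted p was 0.133 at day 2 and 0.305 at day 14 (0.262 and 0.667 without day 0 replicate 2, chosen after seeing the data). NKX6-3 was listed at 0 in all 9 libraries. NKX6-2 made up 99.5% to 100% of the summed NKX6 TPM at day 0, 75.6% to 87.5% at day 2 and 83.0% to 86.1% at day 14, and the sum itself was 1.17 to 2.86 TPM at day 2 and 0.994 to 2.07 TPM at day 14, against 38.3 to 49.9 TPM at day 0.

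The genes whose levels followed NKX6-2 most closely over the 9 libraries were found by Pearson correlation of log2(TPM + 1) among 10155 other genes with at least 5 TPM in their highest day. They were MCUB (r = 0.989), which encodes a subunit of the mitochondrial calcium uniporter, STEAP1B (0.984), the splicing factor gene SRSF2 (0.983), the kinetochore gene SPDL1 (0.982) and the RNA helicase gene DDX1 (0.982). The libraries share their day, so these coefficients describe these libraries and carry no test. STEAP1B came nearest in size, at 1.4 ± 0.215 TPM at day 2 and 1.72 ± 0.306 TPM at day 14, against 12.9 ± 3.1 TPM at day 0. MCUB was at 10.3 ± 1.85 and 9.48 ± 0.209 TPM at day 2 and day 14, against 21.8 ± 0.783 TPM at day 0.

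GATA6, the zinc finger factor of endoderm and of the classical tumour subtype, rose at both later days. Its level was 4.02, 1.56 and 4.12 TPM at day 0, 12.4, 11.9 and 12.5 TPM at day 2 and 16.0, 20.0 and 18.1 TPM at day 14. The 3 days did not overlap, and the 3 day 2 libraries were within 1 TPM of one another. The change was 1.72 ± 0.28 at day 2 (adjusted p = 0.00272, limma) and 2.23 ± 0.28 at day 14 (adjusted p = 0.000977), or 1.49 and 1.79 above the median of all genes. Mean TPM was 3.8 times the day 0 level at day 2 and 5.57 times at day 14. Without day 0 replicate 2 these ratios were 3.02 and 4.42, and the calls held (adjusted p = 0.000145 and 6.79e-05). Over all 19 alternatives the adjusted p ran from 0.000145 to 0.0147 at day 2 and from 6.79e-05 to 0.00928 at day 14. Day 14 was higher than day 2 by 0.51 ± 0.28, which did not pass (adjusted p = 0.369). That difference passed without day 0 replicate 2 (adjusted p = 0.0158) and when only the 2 days compared were fitted (0.0339).

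GATA4, a closely related factor of the early bud, gave no call. It was at 11.1, 2.5 and 12.3 TPM at day 0, at 8.42, 12.5 and 9.22 TPM at day 2 and at 12.4, 10.5 and 10.1 TPM at day 14, with overlap among all 3 days. Its change was 0.40 ± 0.46 at day 2 (adjusted p = 0.532) and 0.53 ± 0.46 at day 14 (adjusted p = 0.394). Both turned to the other sign without day 0 replicate 2, at -0.22 and -0.09. Within each library, the ratio of GATA6 to GATA4 was 1.47, 0.95 and 1.36 at day 2 and 1.29, 1.9 and 1.79 at day 14, against 0.361, 0.622 and 0.335 at day 0. GATA4 was the more abundant of the pair in all 3 day 0 libraries, and GATA6 was in 5 of the 6 later libraries. Such a ratio is not altered by scaling of a library as a whole, and it was chosen after the values had been seen.

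The whole GATA family was examined next, also after its values had been seen, because its members bind like DNA sites. GATA3, better known from T cells and breast epithelium, rose to 20.5, 23.7 and 21.4 TPM at day 2 and 32.5, 42.7 and 51.5 TPM at day 14, against 2.35, 1.16 and 3 TPM at day 0. Its change was 2.89 ± 0.27 (adjusted p = 0.000277) at day 2 and 3.79 ± 0.27 (adjusted p = 0.000134) at day 14, and no alternative ended either call. GATA5 was called higher at both days (1.57 ± 0.46, adjusted p = 0.0329, and 1.45 ± 0.46, adjusted p = 0.0403). Of 19 alternatives 9 ended each of these calls, among them leaving out any 1 day 2 or day 14 library (adjusted p up to 0.107 at day 2 and 0.101 at day 14). GATA2, a blood and endothelial factor, was at 10.2 ± 2.25 TPM at day 2 and 12.5 ± 2.17 TPM at day 14, against 18.6 ± 9.29 TPM at day 0. It was not called (adjusted p = 0.189 and 0.42), but was called lower without day 0 replicate 2 (adjusted p = 0.00329 and 0.0111) and under both other scalings. GATA1 was at 0.0555 TPM or less in every library.

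Expressed as shares of the summed GATA1 to GATA6 TPM, which were not tested, the family had another make-up at the later days. GATA2 held 11.4 ± 0.815% at day 2 and 11.1 ± 2.84% at day 14, against 42.6 ± 5.12% at day 0. GATA3 held 24.9 ± 1.87% and 36.6 ± 5.52%, against 5.21 ± 1.2%, and GATA6 14.1 ± 2.26% and 15.7 ± 1.26%, against 7.57 ± 1.21%. GATA4 held 11.3 ± 0.873% and 9.67 ± 1.86%, against 18.0 ± 3.37%. For GATA2, GATA3, GATA4 and GATA6 no later library overlapped with a day 0 library. GATA5 had the highest share at day 2, with 38.2 ± 2.92% at day 2 and 27.0 ± 0.957% at day 14, against 26.6 ± 3.85% at day 0, and its day 14 and day 0 libraries overlapped. Day 0 replicate 2 was the extreme day 0 library for GATA2 to GATA6, with GATA2 at 48.1%, against 38.0% and 41.8% in replicates 1 and 3.

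**Figure D2:**
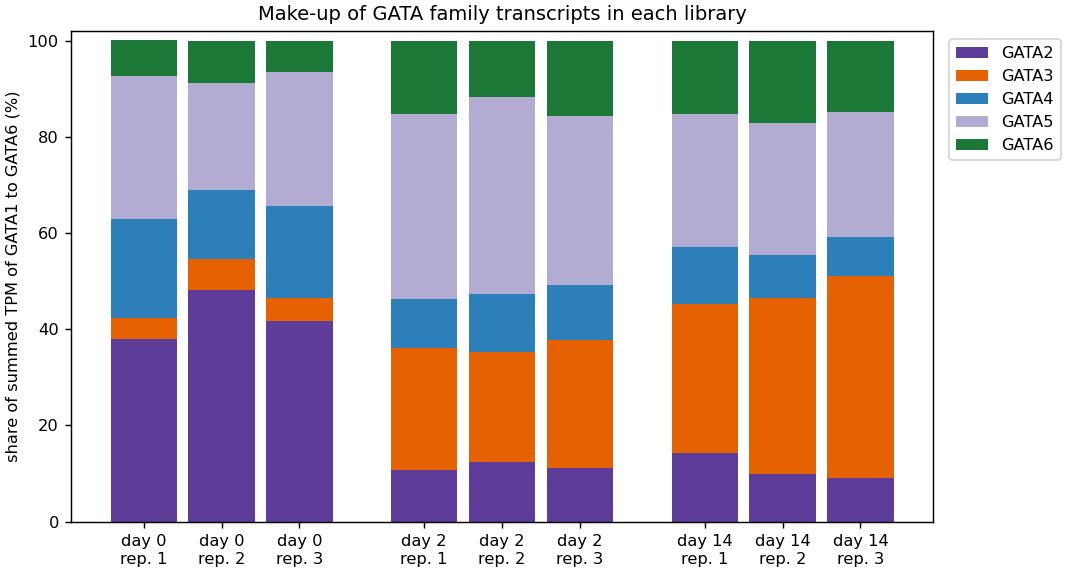
Share of each GATA factor in the summed TPM of GATA1 to GATA6 (vertical axis, %), 1 bar per library, with days from left to right and replicates within a day. GATA1 is too low to be seen. The GATA2 share is 38.0% to 48.1% at day 0 and 9.04% to 14.3% later, while that of GATA3 is 4.35% to 6.58% at day 0 and 22.9% to 42.0% later.

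SOX9, the factor of progenitors and ducts, stood at 58.9, 21.1 and 56.5 TPM at day 0, at 49.1, 65.5 and 54.8 TPM at day 2 and at 111, 79.2 and 89.9 TPM at day 14. Day 0 and day 2 overlapped, and all 3 day 14 libraries were above the other 6. SOX9 was called higher at day 14 against day 0 (1.14 ± 0.37, adjusted p = 0.0423) and not at day 2 (0.43 ± 0.37, adjusted p = 0.395, and -0.038 ± 0.172, adjusted p = 0.871, without day 0 replicate 2). The day 14 call was close to the threshold. It was lost in 9 of 19 alternatives (adjusted p 0.0593 to 0.123), among them leaving out any 1 library of day 2 or day 14, and held without day 0 replicate 2 (0.67 ± 0.172, adjusted p = 0.0142). Day 14 was higher than day 2 by 0.71 ± 0.37 (adjusted p = 0.351), and this passed without day 0 replicate 2 (adjusted p = 0.0183).

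FOXA2, a forkhead factor that opens chromatin in endoderm, was at 35.3, 12.7 and 35.8 TPM at day 0, at 25.5, 36.7 and 29.9 TPM at day 2 and at 22.8, 19.7 and 18.9 TPM at day 14. The day 14 libraries lay below all day 2 libraries and below day 0 replicates 1 and 3, with only day 0 replicate 2 lower. FOXA2 was not called in any comparison (adjusted p = 0.623 at day 2 and 0.548 at day 14 against day 0, and 0.475 between day 14 and day 2). Its day 2 change of 0.25 ± 0.37 was -0.22 ± 0.16 without day 0 replicate 2 (adjusted p = 0.288). Its change at day 14 was -0.30 ± 0.37, or 0.74 below the median of all genes, and it was called lower there without day 0 replicate 2 (-0.77 ± 0.16, adjusted p = 0.00601) and under median-ratio scaling (-0.69, adjusted p = 0.0477) or quantile normalization (-0.71, adjusted p = 0.0295). The day 14 to day 2 difference of -0.55 also passed without that library (adjusted p = 0.0294).

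The balance of SOX9 and FOXA2 differed at day 14. The SOX9 to FOXA2 ratio within a library was 1.67, 1.67 and 1.58 at day 0, 1.93, 1.79 and 1.83 at day 2 and 4.86, 4.01 and 4.76 at day 14. Day 0 replicate 2 gave the same ratio as replicate 1, although both of its levels were low. The mean ratio was 4.54 ± 0.466 at day 14 and 1.64 ± 0.0499 at day 0, with no overlap. Like the GATA ratio it was picked after the values had been seen and was not tested.

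**Figure D3:**
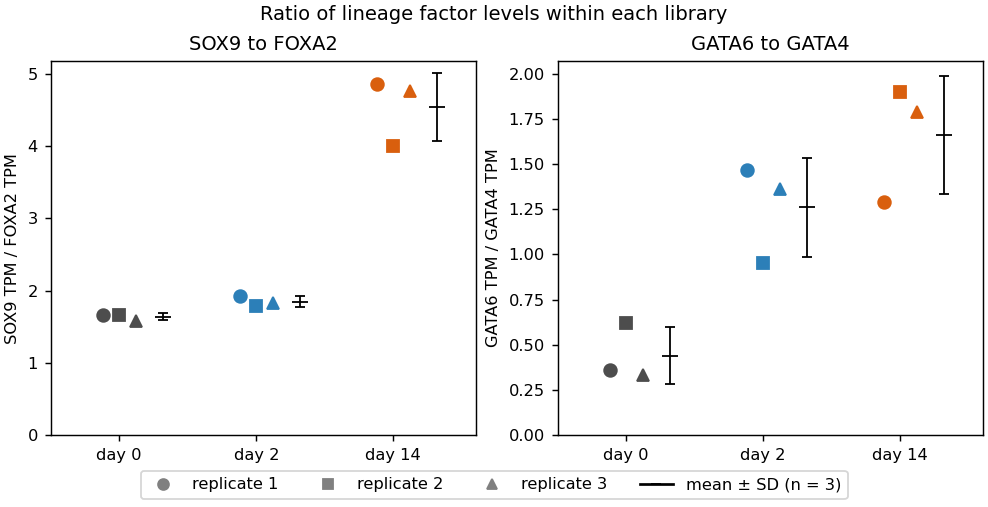
Ratio of SOX9 to FOXA2 (left) and of GATA6 to GATA4 (right) in TPM within each library (vertical axes, no unit) at day 0, day 2 and day 14. Points are libraries and black bars the mean ± SD of 3. The SOX9 to FOXA2 ratio is 1.58 to 1.93 at day 0 and day 2 and 4.01 to 4.86 at day 14, and the GATA6 to GATA4 ratio is 0.335 to 0.622 at day 0 and 0.95 to 1.9 later.

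Long RNAs beside FOXA2, SOX9 and GATA6 were read as well, after the values had been seen. LINC00261, next to FOXA2 in RefSeq gene order, fell to 1.39 ± 0.194 TPM at day 2 and 0.695 ± 0.0562 TPM at day 14, against 2.95 ± 0.736 TPM at day 0 (changes -0.71 and -1.20, adjusted p = 0.0147 and 0.00165). Leaving out day 2 replicate 1 ended the day 2 call (adjusted p = 0.0618), and no alternative ended that of day 14. LINC00673, near SOX9, rose to 74.0 ± 8.7 TPM at day 2 and 54.3 ± 9.22 TPM at day 14, against 17.6 ± 9.08 TPM at day 0 (2.16 and 1.71, adjusted p = 0.00432 and 0.011). Its mean was highest at day 2, when SOX9 was not called, but its day 14 to day 2 difference was not called (-0.45, adjusted p = 0.591). GATA6-AS1, the antisense gene beside GATA6, did not reach the test and was at 0.748 TPM or less in all libraries.

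ONECUT2, HNF4A and PDX1 were too low for the test. ONECUT2, a cut homeodomain factor, was at 0.199, 0.0153 and 0.195 TPM at day 0, at 0.219, 0.237 and 0.199 TPM at day 2 and at 0.619, 0.468 and 0.503 TPM at day 14. All day 14 libraries were above the other 6. It was below the filter, and in the fit without one its change at day 14 was 0.43 ± 0.0741 against day 0 (adjusted p = 0.00664) and 0.33 ± 0.0741 against day 2 (adjusted p = 0.104). With day 0 replicate 2 also left out, these were 0.35 ± 0.0556 (adjusted p = 0.00416) and 0.33 ± 0.0498 (adjusted p = 0.0162). Its relative ONECUT3 held 96.6% to 99.5% of the summed ONECUT TPM in every library. ONECUT3 was at 40.0 ± 12.4 TPM at day 2 and 29.1 ± 6.59 TPM at day 14, against 22.4 ± 18.5 TPM at day 0 (adjusted p = 0.232 and 0.371), with a single low library, day 0 replicate 2, at 1.24 TPM.

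PDX1, the master factor of the pancreatic bud, was at 0.722, 0.278 and 1.04 TPM at day 0, at 0.534, 0.646 and 0.321 TPM at day 2 and at 0.749, 0.722 and 0.67 TPM at day 14. The days overlapped, and 1 of its 9 libraries reached 1 TPM. HNF4A, a nuclear receptor of liver, gut and pancreas, was listed at 0 in 3 libraries and at 0.058 TPM or less in the others. The number of reads behind such levels is unknown, so no limit of detection can be given.

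**Figure D4:**
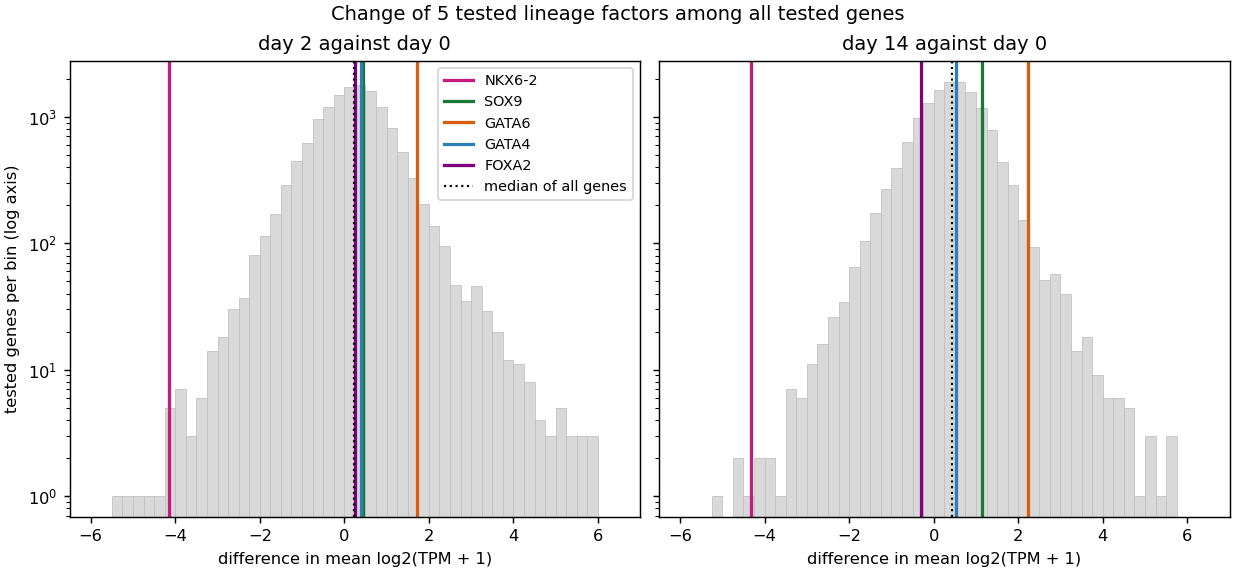
Change of all 14144 tested genes (grey histogram, number of genes per bin on a log axis) at day 2 and at day 14 against day 0, as the difference in mean log2(TPM + 1) on the horizontal axis. Coloured lines mark the 5 tested lineage factors and the dotted line the median of all genes. NKX6-2 lies in the lower tail at -4.14 and -4.33, GATA6 in the upper part at 1.72 and 2.23, and GATA4 close to the median.

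Counted together, 1 of the 4 tested factors other than NKX6-2 was called at day 2 and 2 of 4 at day 14 against day 0, all of them higher. Over all genes 30.7% were called at day 2 (19.2% higher and 11.5% lower) and 34.2% at day 14 (27.5% higher and 6.72% lower), so counts of 1 and 2 among 4 are near the background. The split of calls depended on scaling. Among all called genes 62.4% were higher at day 2 and 80.4% at day 14, against 60.2% and 58.4% with median-ratio scaling and 47.9% and 49.6% with quantile normalization. Between day 14 and day 2 limma called 0 of the 4 factors, and 0 had an unadjusted p under 0.05 (over all genes 0.417% were called, 0.212% higher and 0.205% lower). That count was 3 without day 0 replicate 2, with SOX9 and GATA6 higher and FOXA2 lower, in a fit that called 27.4% of all genes between these days (23.5% higher and 3.86% lower). The same fit called 48.3% of all genes at day 2 and 49.1% at day 14 against day 0, so counts without that library stand against a higher background.

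Other factors of pancreatic progenitors and ducts were read from a list of 20, of which 14 reached the test. At day 2, 5 were called higher and 1 lower, with a median change of 0.64 against 0.23 for all genes, and at day 14, 6 were higher and 0 lower, with a median of 0.52 against 0.44. Over all genes 19.2% were higher and 11.5% lower at day 2, and at day 14 27.5% were higher and 6.72% lower. Among the 6, HNF4G reached 1 TPM in no day 0 library, so it passed the filter through day 2 and day 14 libraries alone. ELF3, an epithelial ETS factor, had a peak at day 2, with 121 ± 10.7 TPM against 15.0 ± 6.16 TPM at day 0 (2.99 ± 0.31, adjusted p = 0.000431). At day 14 it was 0.96 above day 0 (adjusted p = 0.0429), a call lost in 12 of 19 alternatives including that without day 0 replicate 2 (0.0727), and 2.03 below day 2 (adjusted p = 0.0415), lost in 11 of 19. SOX4, a progenitor factor of the SOX family, rose to 59.9 ± 3.73 TPM at day 2 and 51.4 ± 19.4 TPM at day 14, against 15.8 ± 9.04 TPM at day 0 (adjusted p = 0.0143 and 0.0245). Its day 14 call was lost without day 14 replicate 2 or 3 (adjusted p = 0.0848 and 0.0788) and with only the 2 days compared (0.0666). GLIS3, a zinc finger factor tied to neonatal diabetes, rose at day 14 (1.87 ± 0.36, adjusted p = 0.00563). HHEX, needed for the ventral bud, fell at day 2 (-0.95 ± 0.26, adjusted p = 0.0269). This call was lost when day 0 replicate 3 (adjusted p = 0.0547), day 2 replicate 1 (0.0942) or day 2 replicate 3 (0.087) was left out. It was also lost with replicate number as a block (0.0585). With single libraries left out in turn, the higher calls of this list numbered 4 to 6 at day 2 and 3 to 6 at day 14, the 3 being without day 14 replicate 3. Leaving out day 0 replicate 2 or day 14 replicate 1 gave 1 lower call at day 14. The fit without day 0 replicate 2 called 14.5% of all genes lower there.

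**Figure D5:**
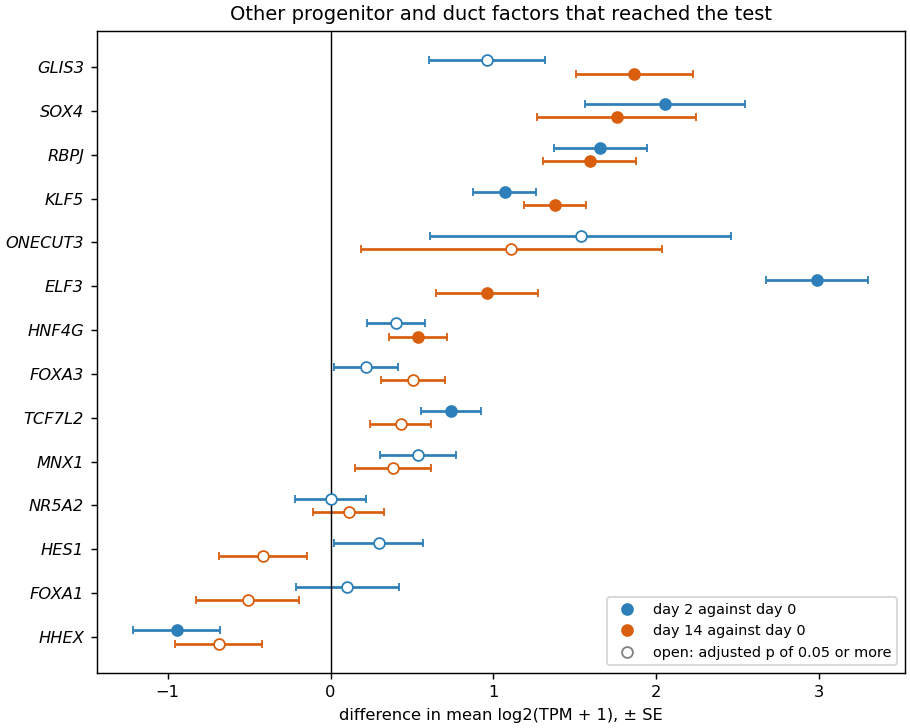
Change of the 14 tested progenitor and duct factors at day 2 and day 14 against day 0, as the difference in mean log2(TPM + 1) with its SE (horizontal axis), 1 row per gene. Filled points were called and open points were not. ELF3 is called at 2.99 at day 2 and at 0.96 at day 14, SOX4 and RBPJ are called at both days, and HHEX is below 0 at both.

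Endocrine and acinar factors were mostly too low to be tested. Of 18 endocrine factors 2 reached the test. RFX3 was called higher at day 14 (1.04 ± 0.19, adjusted p = 0.00434), and both RFX3 and MAFA at day 2 (adjusted p = 0.0261 and 0.0436). Over all genes 19.2% were called higher at day 2 and 27.5% at day 14. RFX3 reached 1 TPM in no day 0 library, so it passed the filter through days at which it was high, and its calls say little. At day 2, 0 calls were left when any 1 day 2 library was left out, and 1 was left without day 0 replicate 1 or any 1 day 14 library. NEUROG3, NEUROD1, PAX6 and NKX2-2 were at 0.202 TPM or less. Of the 5 genes in the acinar list 3 were tested, and PTF1A, which defines that lineage, was at 0 throughout. The 3, namely BHLHA15, XBP1 and GATA5, were called higher at day 14, where 27.5% of all genes were, and XBP1 is also known from the unfolded protein response. BHLHA15 reached 1 TPM in no day 0 library, so it too passed the filter through later days alone, and its call says little. The count was 1 with quantile normalization and with only the 2 days compared. Leaving out day 14 replicate 1 or 3 gave a count of 0, and leaving out day 14 replicate 2 or any 1 day 2 library gave 1.

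Among 34 other genes of the SOX, NKX, GATA and ParaHox families 10 were tested. At day 2, 3 were higher (SOX2, SOX12 and GATA3) and 0 lower, and at day 14, 2 were higher and SOX21 was lower (-1.80 ± 0.33, adjusted p = 0.00492). Over all genes 19.2% were higher and 11.5% lower at day 2, and 27.5% were higher and 6.72% lower at day 14. SOX21 was at 3.51 ± 0.754 TPM at day 14, against 15.7 ± 6.87 TPM at day 0. Without day 0 replicate 2 the lower calls were 2 at day 2 and 3 at day 14, in a fit that called 23.6% and 14.5% of all genes lower. Only 1 was higher at day 14 without day 2 replicate 1 or 3 or day 14 replicate 2 or 3. The median change of the 10 was 0.01 at day 2 and 0.36 at day 14, against 0.23 and 0.44 for all genes.

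Cofactors that these proteins bind were called higher in 5 of 17 cases at day 2 and 7 of 17 at day 14, where 19.2% and 27.5% of all genes were. None of the 17 was called lower, where 11.5% and 6.72% of all genes were. The medians were 0.86 and 1.21, against 0.23 and 0.44 for all genes. TLE4, a Groucho corepressor of the kind that NKX6 proteins recruit, rose to 10.2 ± 2.4 TPM at day 14, against 1.12 ± 0.208 TPM at day 0 (2.39 ± 0.20, adjusted p = 0.000235). MEIS3, a partner of homeodomain factors, rose at day 2 (1.63 ± 0.24, adjusted p = 0.00179) and at day 14 (1.7 ± 0.24, adjusted p = 0.0016). TLE4 was likewise called higher at day 2 (1.45 ± 0.2, adjusted p = 0.0014). NCOA3 rose at day 2 (1.53 ± 0.47, adjusted p = 0.0374), a call lost in 10 of 19 alternatives. CREBBP rose at day 14 (1.88 ± 0.57, adjusted p = 0.0341), a call lost in 9 of 19. The higher calls at day 2 numbered 2 when any 1 day 2 library was left out and 3 when day 14 replicate 1 or 3 was. At day 14 they numbered 4 when day 14 replicate 1 or 3 was left out. Leaving out day 0 replicate 2 gave 7 and 10, in a fit that called 24.7% and 34.6% of all genes higher. That fit also called 23.6% of all genes lower at day 2. Lower calls at day 2 numbered 1 when day 0 replicate 2 or day 14 replicate 1 was left out, and both other scalings gave 2 or 3 at day 2 and 2 at day 14.

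Notch signalling keeps SOX9-positive progenitors from differentiating, and of its 27 listed genes 23 were tested. At day 2, 4 were higher and 1 lower, and at day 14, 5 were higher and 2 lower, with medians of 0.30 and 0.09 against 0.23 and 0.44 for all genes. The higher counts are near or below the 19.2% and 27.5% of all genes. Over all genes 11.5% were lower at day 2 and 6.72% at day 14. The lower counts were 2 and 4 with median-ratio scaling and 4 and 5 with quantile normalization. NOTCH3, a receptor, rose to 9.12 ± 2.62 TPM at day 2 and 7.16 ± 3.59 TPM at day 14, against 0.986 ± 0.704 TPM at day 0 (adjusted p = 0.00311 and 0.00615). RBPJ, the DNA-binding partner of Notch, rose by 1.66 and 1.59 (adjusted p = 0.00358 and 0.00417). NRARP, a feedback target of the pathway, fell to 11.5 ± 1.42 TPM and 7.54 ± 0.731 TPM, against 21.2 ± 3.59 TPM (adjusted p = 0.0129 and 0.00162), a day 2 call lost without day 2 replicate 1 (0.0618). LFNG, the other gene called lower, fell at day 14 (-1.32 ± 0.37, adjusted p = 0.0264), a call lost in 4 of 19 alternatives. Leaving out day 0 replicate 2 gave 3 lower calls at day 2 and 6 at day 14. That fit called 23.6% and 14.5% of all genes lower. With any 1 day 2 library left out 2 were higher at day 2, and with any 1 day 14 library left out 3 were higher at day 14. The lower calls at day 14 numbered 1 when day 0 replicate 3 or day 14 replicate 1 or 3 was left out.

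Markers of cell types were read beside the factors. Of 14 duct markers 8 were tested, and 5 were lower at both days (KRT8, KRT18, KRT19, CA2 and EPCAM), where 11.5% and 6.72% of all genes were lower. KRT8, a keratin of simple epithelia, fell to 438 ± 27.7 TPM at day 2 and 501 ± 62.4 TPM at day 14, against 1870 ± 351 TPM at day 0 (adjusted p = 0.000273 and 0.000439). The mucin gene MUC1 rose at day 2 (1.39 ± 0.20, adjusted p = 0.00168), where 19.2% of all genes were higher. There were 2 higher calls when day 0 replicate 2 or 3 was left out, and the fit without replicate 2 called 24.7% of all genes higher. The summed TPM of the duct list was 1140 to 1350 at day 2 and 1190 to 1410 at day 14, against 3190 to 4440 at day 0. KRT8 and KRT19 (694 ± 212 TPM) made up most of the day 0 sum, so it says little of the other genes. CDH1 was at 32.4 ± 4.32 TPM at day 2 and 10.6 ± 2.03 TPM at day 14, against 17.2 ± 9.72 TPM at day 0, and was not called. CFTR, a defining duct gene, was at 0.0144 TPM or less. The part of these markers in the NKX6-2 difference was not tested.

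Islet, acinar and hepatocyte markers were low. The islet list summed to 1.9 to 5.0 TPM in all libraries, with INS, GCG and SST at 0 throughout, and the acinar list to 0.79 to 4.29 TPM. The hepatocyte list summed to 0.42 to 1.63 TPM, and none of its 14 genes reached 1 TPM. The 9 oligodendrocyte markers, read because NKX6-2 is known in that lineage, summed to 38.9 to 47.0 TPM at day 2 and 39.9 to 52.5 TPM at day 14, against 20.2 to 61.0 TPM at day 0. Of these only MBP and CNP reached 1 TPM, both also made in other cells, and neither was called. Without day 0 replicate 2, 2 were lower at day 2 and 1 at day 14, in a fit that called 23.6% and 14.5% of all genes lower. OLIG2 was at 0 and SOX10 at 0.0261 TPM or less. Of the 2 islet and 1 acinar markers tested, 0 were called by limma in any comparison, also with any 1 library left out. The 13 gastric and intestinal markers summed to 145 to 212 TPM at day 2 and 34.5 to 54.7 TPM at day 14, against 232 to 587 TPM at day 0, mostly AGR2, and 4 were tested. At day 2, TFF3 and LGALS4 were higher and 0 were lower, and at day 14, TFF1 and AGR2 were lower and 0 were higher. Over all genes the shares were 19.2% higher and 11.5% lower at day 2, and 27.5% higher and 6.72% lower at day 14. TFF3 reached 1 TPM in the 3 day 2 libraries alone and LGALS4 in no day 0 library, so both passed the filter through days at which they were high, and their calls say little. The day 2 call of LGALS4 was lost in 11 of 18 alternatives (adjusted p up to 0.147). TFF1 reached 1 TPM in 2 day 0 libraries, 1 day 2 library and 0 day 14 libraries, so its call says little too. It was listed at 0 at day 14, so no fold is given. It fell below the filter when day 0 replicate 2 or 3 or day 2 replicate 1 was left out. AGR2, a secretory protein gene, fell to 39.2 ± 10.4 TPM at day 14, against 347 ± 204 TPM at day 0, where day 0 replicate 2 was at 583 TPM (adjusted p = 0.00112, and 0.000246 without that library).

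The remaining tested factors had other nearest partners by the same correlation over 9 libraries. SOX9 was closest to CCND1, the cyclin D1 gene (r = 0.994), GATA6 to the reticulon gene RTN3 (0.998) and the haem-responsive repressor gene BACH1 (0.997), GATA4 to PTPRA (0.995) and FOXA2 to KIAA1147 (0.973). BACH1 was at 12.2 ± 0.523 TPM at day 2 and 18.0 ± 3.15 TPM at day 14, against 3.68 ± 1.61 TPM at day 0. The low values of day 0 replicate 2 enter all of these coefficients.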

How the data were processed

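RNA-seq values of 9 PANC-1 libraries were used as deposited. The TPM values (transcript abundance per gene symbol, scaled to a fixed library total) were made by the authors with Salmon and the hg19 build, as the submitters' processing notes name them. No version, annotation or strand setting is given in the sources used here. Such values keep no depth, so counting error could not be computed and no count test was run.

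From these, the symbols that reached 1 TPM in 3 or more of the 9 libraries were fitted on log2(TPM + 1) with limma 3.58.1 (R 4.3.3, lmFit and eBayes with an intensity trend). All 9 libraries entered 1 fit without covariates, with 3 two-sided contrasts and Benjamini-Hochberg adjustment over 14144 genes at 0.05. Every adjusted p printed is from limma. A fold on this scale understates the change of low genes. The code was tested on simulated data. The 19 alternatives changed the pseudocount, filter, scaling, variance model, block or libraries.

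The factors and gene lists were chosen with earlier results of these data known. Named from each other list were up to 2 rises and 2 falls per comparison against day 0 with the largest called change and at least 1 TPM. Some of these genes are also given at the other day. Genes like a factor were ranked by Pearson correlation. GATA2, GATA1, ONECUT3, neighbouring genes, defining markers and ratios were chosen after values were seen.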

Additional observations from a re-analysis of the deposited data

How the results depend on the processing

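NKX6-2 was lower at both later days under all 19 alternatives; its change moved with the pseudocount, from -4.78 and -5.07 with 0.1 to -2.89 and -2.97 with 5 (day 2 and day 14 against day 0). GATA6 kept both calls against day 0 under all 19. The genes called at day 14 against day 0 numbered 3214 with a mean of at least 5 TPM and 3001 with only the 2 days compared, and 3141 to 6913 with single libraries left out. At day 2 against day 0 leaving out single libraries gave 2678 to 6800. Between day 14 and day 2 the count was 6 with a pseudocount of 0.1, 127 with 5, 24 with a mean of at least 5 TPM, 116 with median-ratio scaling, 341 with quantile normalization, 2648 with only the 2 days compared and 0 to 3854 with single libraries left out, the highest being without day 0 replicate 2. The factors called at day 14 against day 0 numbered 1 with only the 2 days compared and 1 to 3 with single libraries left out, and between day 14 and day 2 they numbered 2 and 0 to 3.

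Correlations of same-numbered deviations ran from -0.079 to 0.015, which gave no sign of pairing by replicate number. With deviations taken from means of only 3 libraries per day, they cannot settle whether replicates were paired. With the replicate block, 3290 genes were called at day 2 and 3771 at day 14 against day 0, 2 between day 14 and day 2, and 1 factor and 1 gene of the acinar list at day 14 against day 0.

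Some uncalled changes turned sign. GATA4 was at -0.024 with quantile normalization at day 14 against day 0, and at -0.13 with median-ratio scaling and -0.11 with quantile normalization between day 14 and day 2. FOXA1 was at -0.32 with quantile normalization at day 2 against day 0. At day 14 against day 0 FOXA1 was not called (-0.51 ± 0.32, adjusted p = 0.234). It was called lower there without day 0 replicate 2 (-0.89, adjusted p = 0.00825) and with quantile normalization (0.00443). With single libraries left out, changes at day 2 against day 0 ran from -0.22 to 0.49 for FOXA2, -0.22 to 0.74 for GATA4, -0.038 to 0.68 for SOX9, -0.28 to 0.34 for FOXA1 and -0.23 to 0.044 for INPP5A. At day 14 against day 0 they ran from -0.090 to 0.87 for GATA4 and -0.20 to 1.82 for ONECUT3. The lowest of each was without day 0 replicate 2, and the cause was not tested. Depth is unknown, so no counting error could be computed for levels under 1 TPM.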
